A study of Phaseolus vulgaris with 21 samples.

Results

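Caleosins are small proteins of the surface of lipid droplets and of the endoplasmic reticulum. They bind calcium through an EF hand and carry a haem, with which many of them act as peroxygenases that pass oxygen from a fatty acid hydroperoxide to an unsaturated fatty acid. They are best known from oil bodies of seeds, and some Arabidopsis caleosins outside the seed respond to abscisic acid and drought. The 2 caleosins described here, LOC100799842 and LOC100306686, are the rows of a table of 6359 soybean transcripts that the authors pair with the Arabidopsis caleosin locus AT1G70670, known as PEROXYGENASE 4. They were selected on their values in floral nectaries, so the contrast of floral nectaries with other tissues is a description here and carries no test. LOC100799842 is also paired with the neighbouring caleosin locus AT1G70680, while LOC100306686 is paired with AT1G70670 alone.

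All groups come from 1 cultivar of common bean, Phaseolus vulgaris Blue Lake 274, with 3 RNA-seq libraries for each of 7 tissues or stages. Leaf is set beside extrafloral nectaries (EFN), the nectar glands outside flowers, taken where a terminal trifoliate leaf attaches (leaf EFN) or from the stem where a lateral one does (stem EFN). Floral nectaries (FN) were taken at 4 stages, which run from pre1, 24 h ahead of flower opening (anthesis), through pre2, 12 h ahead of it, to the secretory stage sec in open flowers 3 h past dawn, and to post, which followed sec by 12 h. No hour is given for leaf or EFN. All nectaries were dissected by hand, and the labels do not say whether libraries of a group came from separate plants, so p-values measure only the spread between libraries, which may be technical.

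Values are read counts on soybean transcripts that the authors normalized by the upper quartile and rounded, so they are not raw counts. How many reads a unit stands for is not known here. The values of a library summed to between 2616502 and 4270943. Bean reads were counted on the transcripts of another species, and reads of close copies may have been shared between rows, so each row is uncertain as a single bean gene. Library 1 of sec is the only one with no value at 0, and only the transcripts of the table were used. The 7 rows of nectary markers summed to between 40346 and 227244 in each floral library and to at most 2420 in leaf and EFN, where the CRABS CLAW match LOC100500026 was at 0 in every library. The 2 rows of leaf photosynthesis markers summed to at least 5996 in leaf and EFN and to at most 71 in floral nectaries. Pollen, tapetum and guard cell markers had no row in the table, and 3 rows of carpel and ovule markers summed to between 1531 and 4508 in floral libraries, so the part of carpel tissue in the floral values below was not tested. In such bulk samples, fewer cells of a type and less RNA per cell cannot be told apart.

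LOC100799842 was high at all floral stages and about 3 times as high at pre2 as at pre1. LOC100306686 was lower in floral nectaries up to secretion than at post, after secretion. In both extrafloral nectaries, LOC100799842 was higher than in leaf and LOC100306686 was lower. The label of floral nectary caleosins is borne out in every floral library by LOC100799842 alone. Libraries 2 and 3 of pre2 held LOC100306686 at 24 and 38, below every leaf library. Its other floral libraries held 125 or more, against at most 112 in leaf and EFN.

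In leaf, LOC100799842 had values of 88, 45 and 47 in libraries 1 to 3 (60.0 ± 24.3, SD, n = 3). Leaf EFN held 138, 104 and 145 (129 ± 21.9, n = 3), and stem EFN 180, 192 and 116 (163 ± 40.9, n = 3). In floral nectaries it was at 3869, 4647 and 7074 at pre1 (5197 ± 1672, n = 3). All 9 leaf and EFN libraries thus lay below all 12 floral ones, a separation that 18.4% of all tested rows showed in this direction. The lowest floral value was 20.2 times the highest other value, which was 192 in library 2 of stem EFN.

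At pre2 the values of LOC100799842 were 7913, 20546 and 20668 (16376 ± 7329, n = 3), so library 1 was close to pre1 and libraries 2 and 3 were far above it. Sec held 10210, 10005 and 14544 (11586 ± 2563, n = 3), and post 11596, 9674 and 9456 (10242 ± 1178, n = 3). At post it took between 0.265% and 0.299% of all values of a library. In the order of group means, leaf, leaf EFN, stem EFN, pre1, post, sec and pre2, neighbouring groups overlapped between leaf EFN and stem EFN, between post and sec, and between sec and pre2. They did not overlap between leaf and leaf EFN, between stem EFN and pre1, or between pre1 and post. The share of all rows with such gaps between neighbouring groups was not computed. Differences between leaf and leaf EFN were common, with 46.9% of tested rows called by limma.

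LOC100306686 was in leaf at 88, 112 and 76 (92.0 ± 18.3, n = 3). It was lower in both extrafloral nectaries, with 19, 17 and 20 in leaf EFN (18.7 ± 1.53, n = 3) and 18, 19 and 13 in stem EFN (16.7 ± 3.21, n = 3). In floral nectaries it was at 125, 203 and 224 at pre1 (184 ± 52.2, n = 3). At pre2 library 1 held 295 and libraries 2 and 3 held 24 and 38 (119 ± 153, n = 3), so libraries 2 and 3 lay below every leaf library. Sec held 410, 148 and 205 (254 ± 138, n = 3).

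At post, LOC100306686 reached 877, 2300 and 1960 (1712 ± 743, n = 3). All post libraries lay above the 18 other libraries, which 5.7% of tested rows also showed. In the order of its means, stem EFN, leaf EFN, leaf, pre2, pre1, sec and post, the groups did not overlap between leaf EFN and leaf and between sec and post, and all the other neighbours overlapped. Here too the share of all rows with such gaps between neighbours was not computed. The 6 EFN libraries of LOC100306686 lay below the 3 leaf libraries, as in 11.5% of tested rows.

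**Figure D1:**
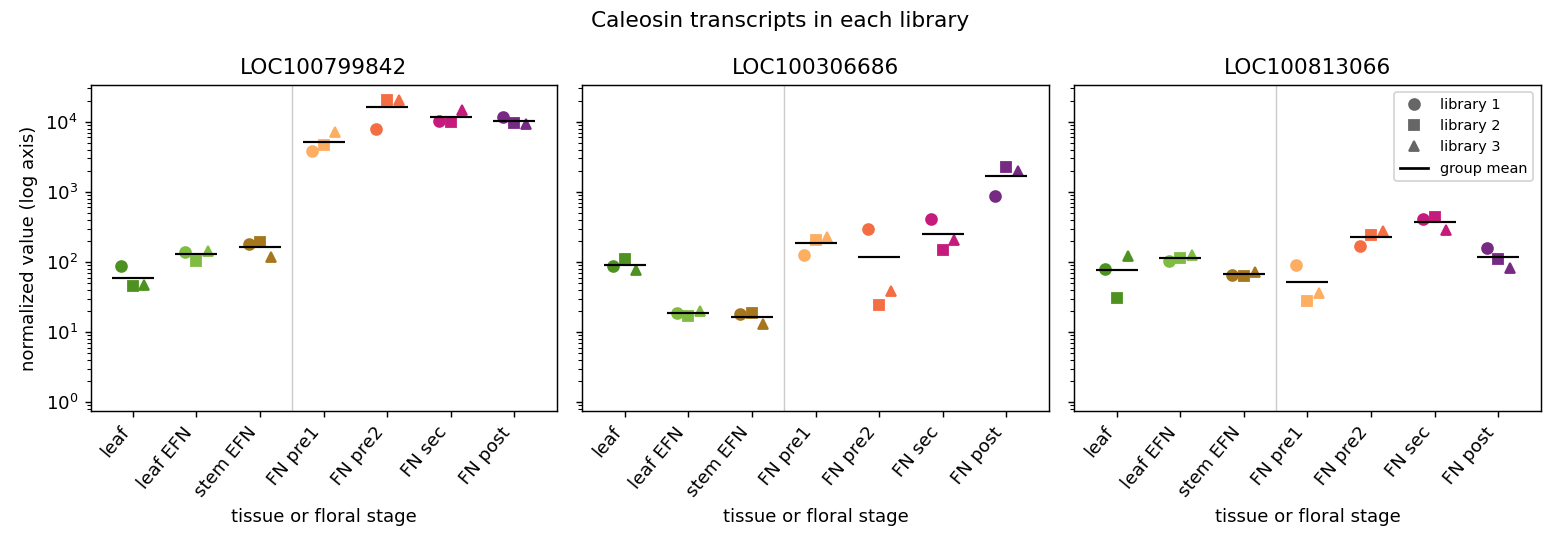
Normalized values (log axis) of the 2 caleosins matched to AT1G70670 and of the other caleosin row, LOC100813066, in the 21 libraries, by tissue or floral stage; symbols mark libraries 1 to 3 and bars the group mean. LOC100799842 lies between 3869 and 20668 in floral nectaries and at most at 192 elsewhere, while LOC100306686 reaches 877 or more only at post.

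Over the 4 floral stages both transcripts changed by limma's moderated F test, with an adjusted p of 0.00338 for LOC100799842 and 3.61e-05 for LOC100306686. This places them among the 57% of all tested rows that were called by this test. The members were selected with results of these data known, so these p-values, from a fit of the whole table, are not independent evidence of the pattern.

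From pre1 to pre2, LOC100799842 rose by 1.57 on the log2 scale of value + 1 (SE 0.335, limma adjusted p = 0.00277). Of all tested rows 19.5% were called in this step, 12.4% higher and 7.05% lower. Of these calls 63.8% were higher, against 50.2% with libraries rescaled to equal upper quartiles. Library 1 of pre1, its lowest floral value, was 2-fold or more from both other pre1 libraries in 179 of 3866 rows with a mean of at least 100, or 4.63%. The nectary marker sum was between 96201 and 194670 at pre1 and between 211992 and 227244 at pre2, and its part in the rise was not tested. Without library 1 of pre1 the rise was 1.39 (adjusted p = 0.0227), and without library 1 of pre2 it was 2.04 (adjusted p = 0.000299). LOC100306686 differed by -1.44 (SE 0.611, limma adjusted p = 0.104) and was not called, but it was called lower without library 1 of pre2, at -2.52 (adjusted p = 0.000619). Its pre2 libraries 2 and 3 lay below all pre1 libraries, and library 1 above them.

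From pre2 to sec, LOC100799842 differed by -0.39 (SE 0.335, limma adjusted p = 0.446) and passed no threshold. LOC100306686 rose by 1.82 (SE 0.611, limma adjusted p = 0.0401) in a step in which 21.4% of rows were called, 12.6% higher and 8.77% lower. It was not called with a replicate block (adjusted p = 0.0508), without an intensity trend (0.0532) or in a fit of only the libraries compared (0.0642). The call was lost without any one of libraries 2 and 3 of pre2 (adjusted p = 0.232 and 0.178) or of libraries 1 and 3 of sec (0.176 and 0.0717), and without library 1 of pre2 the rise was 2.9 (0.000103).

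From sec to post, LOC100306686 rose by 2.77 (SE 0.611, limma adjusted p = 0.00957), which is its largest step in this tissue. LOC100799842 differed by -0.16 (SE 0.335, limma adjusted p = 0.864). Only 5.73% of all rows were called in this step, 2.63% higher and 3.1% lower. The call of LOC100306686 was lost without library 2 of sec (adjusted p = 0.0644), library 2 of post (0.0643) or library 3 of post (0.0609), with rises of 2.44, 2.5 and 2.61. Library 1 of post, the lowest for LOC100306686, was 2-fold or more from both other post libraries in 106 of 3931 rows with a mean of at least 100. The nectary marker sum was between 82743 and 126513 at sec and between 40346 and 123275 at post. Within post, each nectary marker row was highest in library 1, with LOC100810946 at 81854, 43437 and 27583 in libraries 1 to 3. The part of nectary content in the rise of LOC100306686 was not tested.

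Outside the flower, both caleosins were called against leaf and in opposite directions. LOC100799842 was higher by 1.15 in leaf EFN (SE 0.335, limma adjusted p = 0.00889) and by 1.46 in stem EFN (adjusted p = 0.0024). LOC100306686 was lower, at -2.23 in leaf EFN (SE 0.611, limma adjusted p = 0.00595) and at -2.4 in stem EFN (adjusted p = 0.00526). Both comparisons share the leaf libraries. Calls against leaf were common, since 46.9% of rows were called in leaf EFN, 28.4% higher and 18.5% lower, and 34.8% in stem EFN, 22.3% higher and 12.5% lower. The stem EFN calls were higher in 64.1%, against 51.6% after rescaling by median ratios. Neither caleosin was called between stem EFN and leaf EFN, at 0.31 (adjusted p = 0.661) and -0.17 (adjusted p = 0.919), where 5.37% of rows were.

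Of the 7 nectary marker rows, 6 were above 0 in some stem EFN library. The MYB305 row LOC100816972 was at 1, 13 and 21 in libraries 1 to 3, MYB98 at 1, 7 and 6, MYB182 at 0, 3 and 2, and LOC100777418 at 135, 170 and 225. These 4 rows were lowest in library 1, while CWINV, at 837, 747 and 540, and LOC100810946, at 1445, 1480 and 1379, were lowest in library 3, as was LOC100799842. The 7 rows summed to between 2173 and 2420 in stem EFN and to between 1028 and 1476 in leaf EFN. In leaf they summed to between 1369 and 2311, with LOC100810946 at 1567, 2021 and 1143, so the sum does not set extrafloral nectaries apart from leaf. The part of these rows in the values of LOC100799842 was not tested.

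Transcript lengths are not in the table, so the levels of the 2 caleosins cannot be compared with each other, but the course of their ratio can. The log2 ratio of LOC100799842 to LOC100306686, each value + 1, was -0.66 ± 0.649 in leaf (SD, n = 3). It was 2.71 ± 0.146 in leaf EFN and 3.2 ± 0.115 in stem EFN, and the libraries of the 2 groups did not overlap. This gap was not tested, and LOC100306686 was only at 13 to 20 in these libraries, where a few units move the ratio. In floral nectaries the ratio was 4.81 ± 0.259 at pre1, 7.82 ± 2.69 at pre2, 5.62 ± 0.85 at sec and 2.69 ± 0.902 at post. Libraries 2 and 3 of pre2 stood at 9.68 and 9.05, and library 1 at 4.74.

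The ratio was tested on members chosen with their stage values known, so its p-values too are no independent evidence. It differed among the 4 floral stages by an exact permutation test over the 12 floral libraries (p = 0.0168, with 6.49e-05 the smallest p these 369600 assignments can give). The statistic tested was the between-stage sum of squares, which has no direction. As a description, the largest difference between stage means was 5.14, between pre2 and post. Without library 1 of pre2 this difference was 6.68 (exact p of the sum of squares = 0.000195). Without library 2 or library 3 of post it was 4.83 and 4.93, and the exact p of the sum of squares was 0.057 and 0.0567. Over all 21 libraries the ratio ranged from -1.3 in library 2 of leaf to 9.68 in library 2 of pre2.

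**Figure D2:**
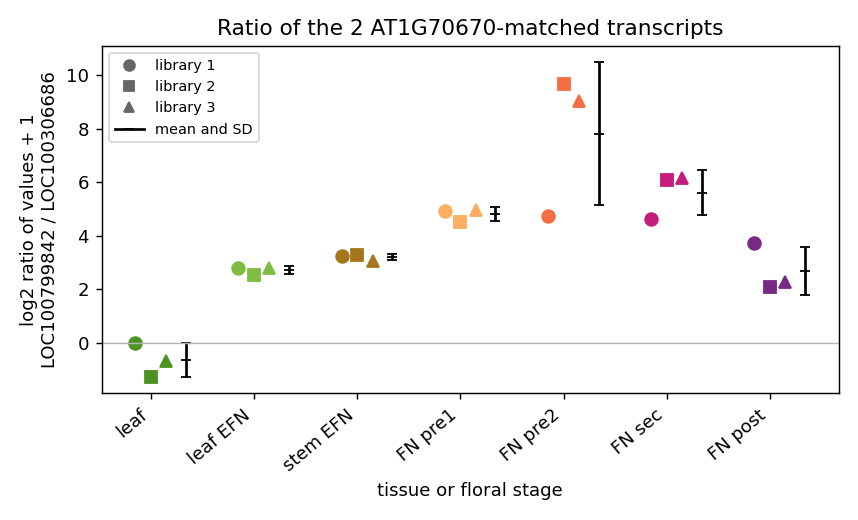
Log2 ratio of LOC100799842 to LOC100306686 (each value + 1) in each of the 21 libraries, by tissue or floral stage, with the group mean and SD (n = 3) beside them. The ratio is lowest in leaf (-0.66), highest at pre2 (7.82) and back to 2.69 at post, with library 1 of pre2 (4.74) apart from the other two.

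Library 1 of pre2 stood apart for both caleosins, although it is otherwise much like libraries 2 and 3. It was 2-fold or more from both other pre2 libraries in 13 of 3867 rows with a mean of at least 100 at that stage, which is 0.336% of them. In 10 of these it was higher and in 3 lower. Both caleosins are among the 13, LOC100306686 in the higher and LOC100799842 in the lower direction, but LOC100306686 has a mean of at least 100 at pre2 only through library 1. The same holds for LOC100306638 (229, 19 and 76 in libraries 1 to 3), LOC100796689 (193, 82 and 78) and a row of LOC100811938 (264, 99 and 75). All of these were higher in library 1, so the filter let in rows of that direction and the counts of 10 and 3 are not comparable.

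The other rows of these 13, named after their values were seen, include the asparagine synthetases AS1, at 576, 183 and 113 in libraries 1 to 3, and AS2, at 1640, 746 and 500. D-3-phosphoglycerate dehydrogenase 1-like LOC100808771, an enzyme of serine synthesis, was lower in library 1, at 130 against 841 and 758. What set library 1 apart in these rows was not tested.

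**Figure D3:**
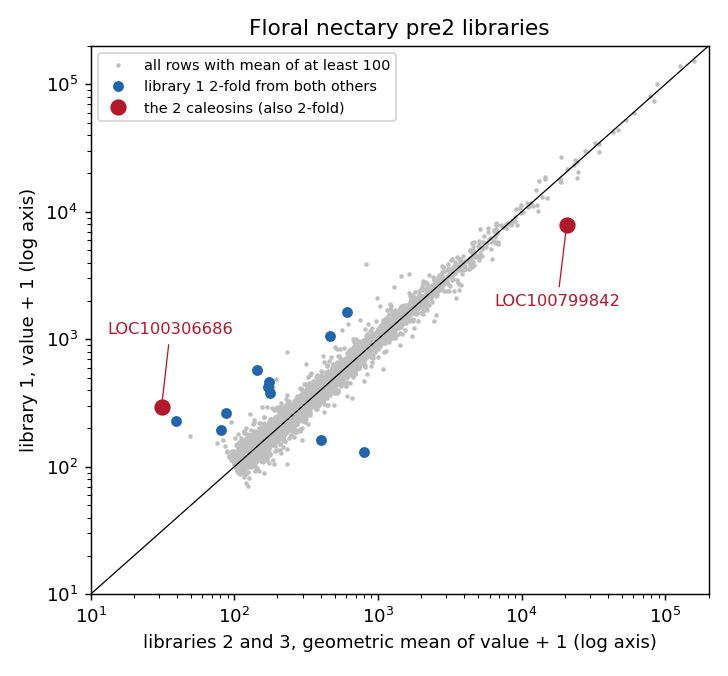
Value + 1 in library 1 of the pre2 floral nectary against the geometric mean of value + 1 in libraries 2 and 3 (both log axes), for 3867 rows with a mean of at least 100; the line marks equal values. Of the 13 rows that are 2-fold or more from both other libraries, 10 lie above the line and 3 below, with LOC100306686 above it and LOC100799842 below it. Some rows above the line, LOC100306686 among them, reached a mean of 100 only through library 1.

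One more caleosin row, LOC100813066, described as peroxygenase 2 and paired with the Arabidopsis caleosin locus AT5G55240, had a course of its own. It was at 90, 28 and 36 at pre1, at 169, 241 and 278 at pre2, at 407, 439 and 284 at sec and at 161, 112 and 81 at post. It rose by 2.29 from pre1 to pre2 (SE 0.416, limma adjusted p = 0.000846) and fell by 1.7 from sec to post (adjusted p = 0.0193). Of the 3 caleosin rows, each thus had its highest mean at another floral stage: LOC100799842 at pre2, LOC100813066 at sec and LOC100306686 at post. The first 2 of these peaks were not set apart by limma in the step from pre2 to sec. There LOC100799842 differed by -0.39 (limma adjusted p = 0.446) and LOC100813066 by 0.72 (adjusted p = 0.243), though the authors call LOC100813066 changed in this step. Outside the flower the values of LOC100813066 ran from 31 to 127, so those of floral nectaries at pre1 and post overlapped with them. The other 4 loci of the Arabidopsis caleosin family that were searched for had no row.

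In the authors' deposited table, LOC100799842 is called changed between pre1 and pre2 and not between pre2 and sec or between sec and post. In the authors' deposited table, LOC100306686 is called changed between sec and post alone among the floral steps. The authors' deposited table calls both changed between sec and each extrafloral nectary, and neither between the extrafloral nectaries. Of all rows, the authors call 18.9% from pre1 to pre2, 29.9% from pre2 to sec and 9.86% from sec to post. They call 50.0% between sec and stem EFN, 53.8% between sec and leaf EFN and 2.06% between the extrafloral nectaries.

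Other proteins of lipid droplets had 7 rows. Of these 2 rose from pre1 to pre2, 3 rose from pre2 to sec and none was called from sec to post, and none fell in any of these steps. Over all tested rows, 19.5%, 21.4% and 5.73% were called in these steps, in either direction. Without library 1 of pre2, an alternative added after the data were seen, 0 of the 7 rose from pre1 to pre2 and 1 from pre2 to sec. Their median log2 changes were 0.513, 0.502 and 0.416, against 0.0231, -0.0129 and -0.0547 over all rows. The row matched to AT3G05500, a small rubber particle-like protein that coats lipid droplets (LOC100527222), held 522, 731 and 1048 at pre1 and 3128, 4911 and 5923 at post. It rose by 0.83 to pre2 (adjusted p = 0.0351) and by 0.92 to sec (adjusted p = 0.0191), each by limma, and differed by 0.86 to post (adjusted p = 0.067). The triacylglycerol lipase SDP1 match LOC100816093, which starts the breakdown of stored oil, rose by 1.104 from pre2 to sec (limma adjusted p = 0.012). The UBX-domain protein LOC100784230, whose Arabidopsis match extracts proteins from droplets, rose by 0.59 in the same step (adjusted p = 0.022). LOC100816931, matched to AT1G67360 and of the same family as LOC100527222, rose by 0.85 from pre1 to pre2 (adjusted p = 0.0378).

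An oleosin match, LOC100306353, a structural coat protein of oil bodies, was listed at 0 in all leaf and leaf EFN libraries and at 0, 1 and 1 in stem EFN. In floral nectaries it ran from 35 to 161, and it was not called over the stages (F test adjusted p = 0.129). All 12 floral libraries lay above the 9 others, as they did in 18.4% of all tested rows.

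Of 5 rows of triacylglycerol synthesis, 1 was lower in each floral step and none was higher, against 7.05%, 8.77% and 3.1% of all tested rows that were lower. With so few rows, 1 call in a step is no result about the list. Diacylglycerol acyltransferase 2-like LOC100784657, which makes triacylglycerol from diacylglycerol, fell by 2.06 from sec to post (SE 0.225, limma adjusted p = 2.29e-05), from 1387, 1608 and 1264 to 370, 326 and 321. This is the step in which LOC100306686 rose. LOC100527582, matched to the soluble acyltransferase DGAT3, was lower at pre2 than at pre1, at -2.31 (adjusted p = 0.00666), and LOC100814759, matched to GPAT9, lower at sec than at pre2, at -0.56 (adjusted p = 0.0256). The acyltransferase match LOC100792858 (AT3G57650) was called in no single step, with differences of 0.39, 0.17 and 0.093. With either rescaling of the libraries, 1 row of this list was also called higher from pre2 to sec, and without library 1 of pre2 none was called lower in that step.

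Fatty acid breakdown by beta-oxidation had 6 rows, of which 1 rose and 1 fell from pre1 to pre2, 2 fell from pre2 to sec and none was called from sec to post. The shares of all tested rows called in these steps were 19.5%, 21.4% and 5.73%, and 2 of 6 is not far from them. The acyl-CoA oxidase ACX1;1 fell by 1.29 (limma adjusted p = 0.000599) and by 0.99 (adjusted p = 0.0037), and ACX1;2 by 1.3 in the second of these steps (adjusted p = 8.03e-05). The oxidase LOC100125585, matched to ACX4, rose by 0.87 from pre1 to pre2 (adjusted p = 0.00193). The thiolase match LOC100807194 (AT2G33150) was not called over the stages (F test adjusted p = 0.238).

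Of 3 rows for cutin synthesis and epoxide hydrolysis, 2 fell from pre1 to pre2 and 2 rose from pre2 to sec, in steps in which 7.05% of all tested rows were lower and 12.6% were higher. LOC100818246, matched to the acyltransferase locus AT1G01610, fell by 1.02 (limma adjusted p = 0.018) and then rose by 1.42 (adjusted p = 0.00165), while LOC100808918 (AT4G00400) was called in neither step (adjusted p = 0.537 and 0.143). Epoxide hydrolase 2-like LOC100803974 opens fatty acid epoxides, which peroxygenases can form. It was low in floral nectaries, at 12, 4 and 5 at pre1, 1, 1 and 0 at pre2, 29, 41 and 23 at sec and 11, 13 and 5 at post, and between 228 and 901 in the EFN libraries. It was called lower from pre1 to pre2 (limma adjusted p = 0.00402) and higher from pre2 to sec (adjusted p = 4.58e-06), both on low values. In leaf this hydrolase held 184, 73 and 153, so its floral values lay below all others. The share of all rows with this separation was not computed. LOC100799842, which had its highest values in floral nectaries, was selected on them, and a link between the 2 rows was not tested.

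Abscisic acid genes were included because caleosins of Arabidopsis respond to this hormone. Synthesis and breakdown had 4 rows, with 1 higher and 1 lower from pre1 to pre2, 2 higher and 1 lower from pre2 to sec, and 1 lower from sec to post. Over all tested rows, 19.5%, 21.4% and 5.73% were called in these steps. LOC100780284 is matched both to AT3G14440 (NCED3), for the step that commits carotenoids to the hormone, and to AT4G19170. Its place in this list is thus uncertain. It averaged 831 at pre1, 1229 at pre2, 2058 at sec and 4470 at post (F test adjusted p = 0.000408). No single step was called, that to post at 1.096 (limma adjusted p = 0.156). Zeaxanthin epoxidase-like LOC100820171 rose by 1.97 and by 2.13 up to sec and then fell by 1.35 (limma adjusted p = 0.000314, 8.75e-05 and 0.0142). LOC100803447, described as secoisolariciresinol dehydrogenase-like and matched to AT1G52340, the locus of the dehydrogenase ABA2 of the same pathway, fell by 1.19 and by 1.46 up to sec (adjusted p = 0.0274 and 0.00805), to 10, 7 and 7. Abscisic acid 8'-hydroxylase LOC100170674, which starts the breakdown of the hormone, rose by 1.496 from pre2 to sec (adjusted p = 0.00107). The synthesis rows thus did not move in one direction.

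Of 9 rows of abscisic acid signalling, 4 rose from pre1 to pre2, 1 rose from pre2 to sec and none was called from sec to post. None fell in these steps, in which 19.5%, 21.4% and 5.73% of all tested rows were called. With libraries rescaled by median ratios or to equal upper quartiles, 2 rose from pre2 to sec. Protein phosphatase 2C LOC100796161, matched to the abscisic acid co-receptor phosphatase PP2CA, rose by 2.02 from pre1 to pre2 (SE 0.198, limma adjusted p = 2.61e-06), from 1158, 1741 and 2317 to 6823, 7446 and 6167. This is the step in which LOC100799842 rose, but here library 1 of pre2 was not apart. Phosphatase LOC100818568 rose by 1.16 (adjusted p = 0.000547) and by 0.85 to sec (adjusted p = 0.00509), and the transcription factors BZIP10 and AREB1, matched to factors that bind abscisic acid response elements, by 0.62 (adjusted p = 0.0243) and 0.67 (adjusted p = 0.0215) to pre2. With equal upper quartiles, 1 row of this list was called lower from pre1 to pre2.

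The list of genes that respond to abscisic acid and drying had 10 rows, all of them called among the floral stages by the F test, which called 57% of all tested rows. From pre1 to pre2 5 rose, from pre2 to sec 7, and from sec to post 1, with none lower, against 12.4%, 12.6% and 2.63% of all tested rows that were higher. These counts were within 1.5 times of themselves under both rescalings and without library 1 of pre2. The list's medians were 1.42, 1.43 and 0.265. Homeobox protein ATHB-12-like LOC100806279 held 244, 529 and 933 at pre1 and 3542, 4245 and 3768 at pre2, a rise of 2.96 (limma adjusted p = 8.71e-05), and then differed by 0.16 and -0.21. ATHB-7-like LOC100793260 rose by 3.15 and by 3.84 up to sec (adjusted p = 3.88e-06 and 1.14e-07). LOC100813715, matched to RD29B, rose by 4.84 to pre2 and 2.15 to sec (adjusted p = 2.61e-06 and 0.00322), with values of 1, 0 and 1 at pre1. The COR47-like dehydrin LOC100816984, a protein of dehydrating cells, rose by 1.404 to sec (adjusted p = 0.00325) and by 1.15 to post (adjusted p = 0.0333), where its libraries held 5713, 10292 and 14575. The heat shock protein row SB100, matched both to AT5G51070 (ERD1) and to AT1G74310 (HSP101), so that its place in this list is uncertain, rose by 1.46 to sec (adjusted p = 0.00654).

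**Figure D4:**
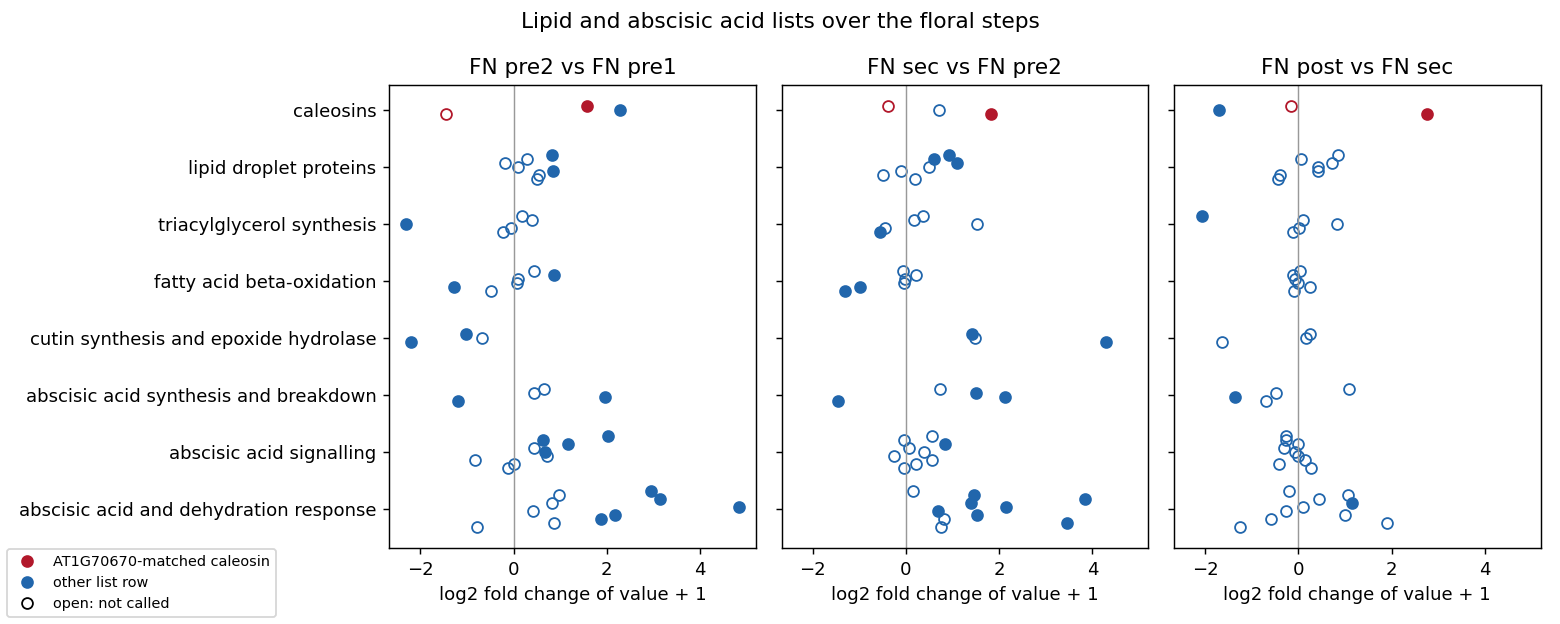
Log2 fold change of value + 1 for each row of the 8 lists in the 3 floral steps; filled points were called at an adjusted p under 0.05 and red points are the caleosins matched to AT1G70670. LOC100799842 is called to the right from pre1 to pre2 (1.57), and LOC100306686 from pre2 to sec (1.82) and from sec to post (2.77). The call of LOC100306686 from pre2 to sec was lost in 3 other settings and kept in 2 of 6 fits that left out 1 library. Its call from sec to post was kept in 3 of 6 such fits. The abscisic acid and dehydration response list has 5, 7 and 1 filled points to the right.

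The rows most like each caleosin were found by Pearson's r of log2(value + 1) among 5003 rows with a mean of at least 100 in some group. Over all 21 libraries, which share the contrast of floral nectaries with the rest, the rows most like LOC100799842 were SAP-domain LOC100787318 (r = 0.986), the malate transporter family member LOC100783168 (0.986), SAUR-like LOC100794597 (0.985), the RING protein LOC100789854 (0.984) and the membrane protein LOC100499802 (0.984). Over the 12 floral libraries they were LOC100783151 (r = 0.951), zeta-carotene desaturase LOC100816122 (0.926), photosystem I subunit K match LOC100527056 (0.909, which passed the level filter only through leaf and EFN and averaged at most 37.0 in floral nectaries), LOB-domain LOC100806667 (0.898) and LOC100306430, matched to SAG21 (0.896). Their likeness to LOC100799842 was the rule by which they were found, and it includes a low library 1 of pre2, at 127 against 212 and 211 for LOC100806667.

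LOC100306686 had less close companions over 21 libraries. They were the inositolphosphotransferase LOC100797212 (r = 0.897), the nucleoporin LOC102668982 (0.879), omega-3 desaturase FAD3-2b (0.878), the telomere-repeat binding LOC100795471 (0.875) and AS1 (0.874). The fatty acid desaturase FAD3-2b, which makes the trienoic fatty acids from which many oxylipins derive, averaged 595 in leaf, 23 in leaf EFN and 57.7 in stem EFN, and went from 1367 at sec to 5870 at post. Like LOC100306686, FAD3-2b was lower in both extrafloral nectaries than in leaf and highest at post. It was found by this likeness, so the shared course is no separate result.

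Over the 12 floral libraries the rows most like LOC100306686 were LOC100789312 (r = 0.951), LEA14 homolog LOC547837 (0.929), alpha-amylase-like LOC100815664 (0.927), LOC732588, matched to WRKY40 (0.926), and YLS9-like LOC100806641 (0.917). Found by their likeness, they share its higher values at post and in library 1 of pre2, where LOC100806641 held 103 against 6 and 10. LOC100815664 passed the level filter only through post, where it averaged 177. At pre2 it held only 13, 4 and 2 in libraries 1 to 3. Between themselves the 2 caleosins had an r of 0.597 over 21 libraries and of -0.294 over the 12 floral ones, as a description over libraries that share groups.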

How the data were processed

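The deposited table holds 21 library columns of a score: read counts on soybean RefSeq transcripts, normalized by the upper quartile and rounded by the authors, per the file headers. The read mapper is not given in the sources used here, and DESeq is named without version or role in the submitters' processing notes. The authors' group means and SDs were only compared with recomputed ones. Neither member is in the bean gene table available, and no sequence was used.

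Values were transformed as log2(value + 1). Rows with a mean of at least 1 (6351, with 8 left out, both members kept) were fitted with limma 3.58.1 in R 4.3.3, with 7 group means, 14 residual degrees of freedom and an intensity trend. P-values are two-sided, Benjamini-Hochberg adjusted over all tested rows and called under 0.05. The pipeline was tested on simulated data. A pseudocount understates changes of low rows.

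Members and lists were chosen with earlier results of these data known. Lists are Arabidopsis loci that the table pairs with rows. Named rows are the members, caleosin matches, 5 rows most like each member over 21 and over 12 libraries, and up to 4 rows per list with the smallest F test p; others were named after their values were seen. Alternatives were pseudocounts of 10 and 0.5, filters, rescalings, no trend, a replicate block, separate fits and leaving out each library.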

Additional observations from a re-analysis of the deposited data

How the results depend on the processing

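LOC100799842 was called higher at pre2 than at pre1 in all 6 fits that left out 1 library and in 9 other settings, and both members kept their calls in both extrafloral nectaries against leaf in every setting run. The rise of LOC100306686 from pre2 to sec stayed at 1.817 without a trend (limma adjusted p = 0.0532), with a replicate block (0.0508) and with only the libraries compared (0.0642), and passed the threshold in none of these 3 settings. Leaving out 1 library, it ran from 1.115 to 2.898 and was called in 2 of 6 fits. The step of LOC100306686 from pre1 to pre2 ran from -2.523 to -0.7404, and that from sec to post from 2.443 to 3.19, called in 3 of 6 fits. LOC100799842 from sec to post ran from -0.2568 to 0.01302, turning sign without library 3 of sec (adjusted p = 0.993). The largest stage difference of the log2 ratio ran from 4.207 to 6.678. With the replicate block the exact permutation p of the between-stage sum of squares was 0.0104.

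Counts over all rows moved more. With only the libraries compared, 1387 rows were higher and 1304 lower from pre2 to sec (800 and 557 in the fit of all libraries), 347 and 332 from sec to post (167 and 197), 766 and 433 in stem EFN against leaf (1417 and 792), and 45 and 21 in stem EFN against leaf EFN (178 and 163). With equal upper quartiles 677 rows were lower from pre1 to pre2 (448). Leaving out 1 library gave 453 to 864 higher and 164 to 474 lower from pre1 to pre2, 531 to 646 and 278 to 410 from pre2 to sec, 53 to 271 and 83 to 333 from sec to post, and 53 to 338 and 47 to 209 between the extrafloral nectaries. The causes were not tested.

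Libraries share only a number: 5 of 63 same-numbered pairs had deviations with a correlation over 0.1, with a range from -0.255 to 0.189. Rescaling by median ratios moved the median log2 difference of all rows in leaf EFN against leaf from 0.13 to 0.00829, and in stem EFN from 0.106 to -0.00204, which is small beside the members' changes. It moved the share of calls that were higher from 60.5% to 51.8% in leaf EFN and from 64.1% to 51.6% in stem EFN; equal upper quartiles moved it from 63.8% to 50.2% from pre1 to pre2.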
